A study of Homo sapiens with 16 samples.

Results

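Leukocyte immunoglobulin-like receptors (LILRs) and their relative LAIR1 are surface proteins of myeloid and other immune cells encoded in the leukocyte receptor cluster on chromosome 19. The 10 genes described here, LILRA1, LILRA2, LILRA5, LILRA6, LILRB1, LILRB2, LILRB3, LILRB4, LILRB5 and LAIR1, were chosen by symbol from the 62700 genes of the normalized count table, after LILRA5 had stood out among genes that rose with retinoids. The values of LILRA5 against untreated cells and on adding inhibitors are therefore descriptions without a p-value. OCI-AML3 is an established acute myeloid leukemia (AML) cell line. RNA-seq covered 16 libraries, with treated cells taken after 3 h: 4 of untreated cells, 3 with all-trans retinoic acid (ATRA, 0.1 µM), 3 with Am80 (0.1 µM), 3 with ATRA+GSK-LSD1+MB3 (the ATRA combination) and 3 with Am80+GSK-LSD1+MB3 (the Am80 combination). ATRA activates all retinoic acid receptors (RARs), Am80 is a RARA-selective agonist, GSK-LSD1 (0.1 µM) inhibits the histone demethylase LSD1, and MB3 (100 µM) inhibits the acetyltransferase GCN5. The inhibitors were always given together and beside a retinoid, so their own effect and that of either inhibitor cannot be told apart. The repeats are numbered libraries of 1 cell line, and nothing says that they came from separate cultures, so p-values measure the spread between these libraries, which may be technical.

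LILRA receptors have short cytoplasmic tails and signal through the adaptor FcRγ, encoded by FCER1G, and its activation motifs. LILRB receptors and LAIR1 carry inhibitory motifs in long cytoplasmic tails and recruit the phosphatases SHP-1 and SHP-2, encoded by PTPN6 and PTPN11. Several LILRBs bind MHC class I molecules, LAIR1 binds collagens, and LILRB4 is known as a surface antigen of monocytic AML. The genes arose by duplication, and their transcripts share stretches of sequence, so short reads can fit more than 1 of them.

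Libraries held between 11963898 and 33789718 reads, a 2.82-fold span. All 6 myeloid markers examined were present, with CD33 at 1254 to 1602 and MPO at 23.9 to 53.2 normalized counts. The T cell markers CD3D and CD2, the B cell marker MS4A1, the natural killer cell marker NCR1 and the platelet marker PF4 had no read in any library. NCAM1 was present at 2111 to 2994 and ITGA2B at 19.6 to 39.1 normalized counts, and neither changed beyond the limits below in any comparison. Among the myeloid markers LYZ was lower with ATRA and SPI1 and MPO were lower with the ATRA combination, by log2 fold changes from -0.67 to -0.59, while LYZ was higher on adding inhibitors to ATRA (0.70, limma adjusted p = 1.21e-07). The part of these markers in the receptor values was not tested.

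Normalized counts are reads divided by a size factor for the depth of each library. Genes averaging 10 or more normalized counts across the 16 libraries entered the test, 14643 in all, and 7 of the 10 receptors were among them. LILRA5 was the only 1 of these 7 with an untreated mean under 10, so it entered through its treated libraries. LILRA6 and LILRB3 had means of 2.38 and 3.03, and LILRB5 had 0 reads in every library. For LILRB5 a count of 0 among 59198293 untreated reads allows up to 3 reads, a limit for counting error only.

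**Figure D1:**
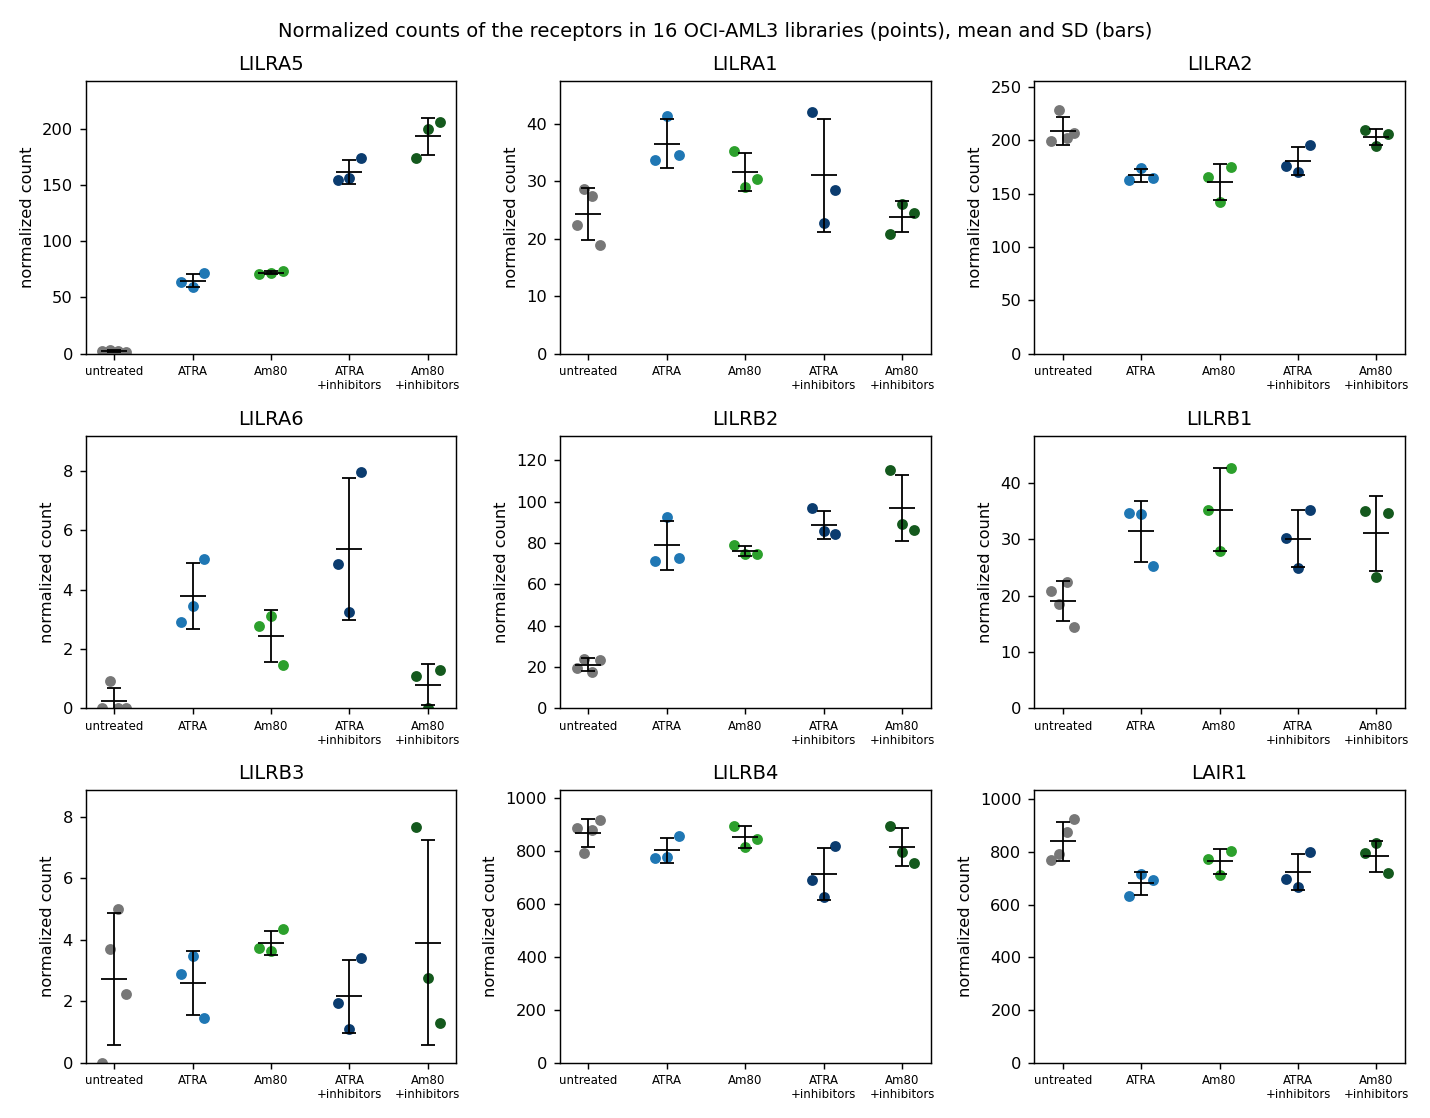
Normalized counts (y axis, from 0, own scale per receptor) of 9 receptors in each of the 16 libraries (points) by condition, with the mean and SD as bars; "inhibitors" are GSK-LSD1 and MB3 together. LILRA5 lies between 1.11 and 3.69 in untreated cells, between 59.5 and 73.8 with a retinoid and between 154 and 206 with a retinoid and inhibitors, while LILRB4 and LAIR1 stay between 627 and 926.

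In untreated cells the receptors fell into tiers. To compare levels between genes, normalized counts were divided by the length of the longest annotated transcript in kb. LILRB4 came first with 217 ± 13.2 normalized counts per kb (SD, n = 4) and LAIR1 followed with 171 ± 14.9. LILRA2 had 47.2 ± 2.95 and LILRA1 9.42 ± 1.76 per kb. LILRB2 had 7.47 ± 1.104, LILRB1 6.44 ± 1.18 and LILRA5 1.85 ± 0.79 per kb. LILRB3, LILRA6 and LILRB5 were lowest. The ranges of LILRA1 and LILRB2, of LILRB2 and LILRB1, and of each neighbour pair from LILRA5 down to LILRB5 overlapped, so these neighbours did not differ beyond their spread.

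With ATRA the order was LILRB4, LAIR1, LILRA5, LILRA2, LILRB2, LILRA1, LILRB1. LILRA5 stood at 47.6 ± 4.39 per kb (SD, n = 3) above LILRA2 at 37.8 ± 1.36. With Am80 the order of these 7 was the same. With the ATRA combination LILRA5 reached 119 ± 7.89 per kb and LAIR1 147 ± 13.98. With the Am80 combination LILRA5 had 142 ± 12.3 and LAIR1 160 ± 11.8 per kb, and their ranges overlapped. LILRA5 moved from rank 7 in untreated cells to rank 3 in each treated group. Divided by the union of exons in place of the longest transcript, LILRA5 ranked above LAIR1 in both groups with inhibitors, with overlapping ranges. The summed normalized counts of all 10 receptors differed little, from a mean of 1870 with ATRA to 2153 with the Am80 combination, against 1989 in untreated cells. LILRA5 made up 0.129% of that sum in untreated cells, 3.47% and 3.61% under ATRA and Am80, and 8.38% and 9.02% under their combinations.

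**Figure D2:**
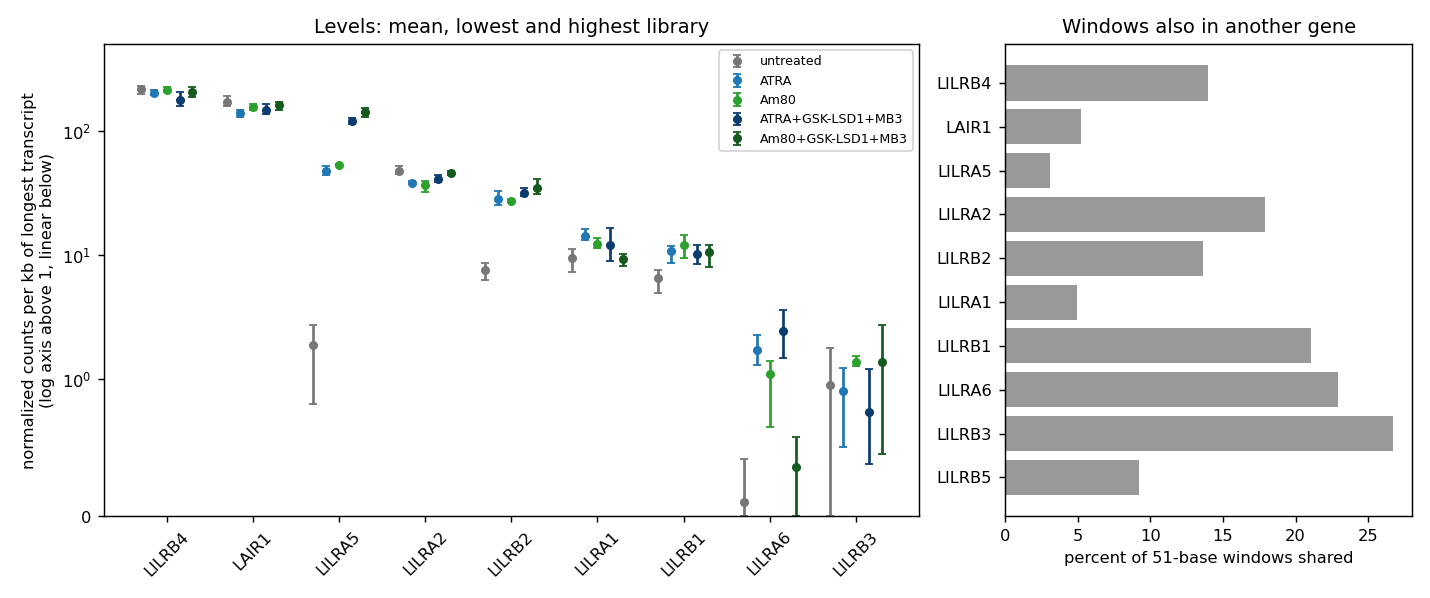
Left, normalized counts per kb of the longest annotated transcript (y axis, logarithmic above 1 and linear below) for 9 receptors in the 5 conditions, as mean (point) with lowest and highest library (bars). Right, percent of the 51-base windows of the annotated transcripts of each receptor that also occur in another gene, from 3.10% for LILRA5 to 26.7% for LILRB3.

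Shared sequence limits what a count of each receptor means. Windows of 51 bases, the read length of the study, were taken from GENCODE 29 transcripts of each receptor and looked for on either strand in transcripts of all other genes. LILRA5 shared 3.10% of its 1805 windows, LILRA1 4.94% and LAIR1 5.26%. LILRB2 shared 13.6% of its windows, most of them with LILRB1, which held 11.3% of LILRB2 windows. LILRB1 shared 21.1%, with 8.39% in LILRB2, 6.27% in LILRB5 and 5.70% in its antisense gene LILRB1-AS1, which had no read. LILRA6 shared 22.9% and LILRB3 26.7%, chiefly with each other through 629 windows. LILRA2 and LILRB4 shared 17.9% and 13.97%, mainly with the overlapping annotations AC245036.5 and VN1R105P, which had no read in any library. LILRB5 shared 9.23%. How reads that fit several genes were counted is not given in the sources used here, so values of the receptors with larger shares are uncertain. LILRA6 and LILRB3 also lie within the span of RPS9, a ribosomal protein gene on the opposite strand with up to 9671 reads in a library, but share no exonic base with it.

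The question of the first comparisons was what each retinoid alone did to the receptors. LILRA5 and LILRB2 rose with both ATRA and Am80, LILRB1 rose less, and no receptor fell beyond 1.5-fold. A gene was called where the Benjamini-Hochberg adjusted p over all 14643 genes was under 0.05 and the change over 1.5-fold, in limma on log2(normalized count + 1). With ATRA 3 of the 7 tested receptors were higher and 0 lower, where 6.52% of all genes were higher and 2.94% lower. With Am80 the same 3 receptors were higher and 0 lower, where 6.41% of all genes were higher and 3.76% lower. The comparisons of ATRA and Am80 share their 4 untreated libraries. Across the 7 receptors the log2 fold change had a median of 0.58 with ATRA and 0.38 with Am80, against -0.02 and -0.01 over all genes tested. LILRA5, through which the genes were chosen, counts among the 7 and among the 3 called. Nothing is therefore read from these counts and medians about the group.

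LILRA5 (ENSG00000187116.14, GRCh38 chromosome 19, 54307070 to 54313139, minus strand) encodes an activating receptor of monocytes and neutrophils. Untreated libraries held 2, 4, 2 and 1 reads, or 2.79, 3.69, 2.49 and 1.11 normalized counts. ATRA libraries held 63.6, 59.5 and 71.3 normalized counts, from 66, 69 and 99 reads. Every ATRA library lay above every untreated library. Am80 libraries held 70.6, 72.0 and 73.8 normalized counts, also apart from the untreated range. Since untreated cells gave 9 reads in all, the fold is best taken from pooled reads with its counting interval: 25.4-fold higher with ATRA (exact 95% interval 13.2 to 56.3) and 28.1-fold with Am80 (14.6 to 62.1). On the log2(normalized count + 1) scale, which understates changes of low genes, the fitted fold was 19.4 with ATRA and 21.6 with Am80.

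LILRB2 (ENSG00000131042.15, chromosome 19, 54273821 to 54281184, minus strand) encodes an inhibitory receptor for MHC class I molecules and lies next to LILRA5 among the listed genes, 25.9 kb away on the same strand. Untreated libraries held 19.5, 24.0, 17.4 and 23.3 normalized counts. ATRA libraries held 71.3, 92.3 and 72.7, and Am80 libraries 78.9, 74.6 and 74.5. All retinoid libraries lay above all untreated libraries. The fold was 3.62 with ATRA (95% confidence interval 2.90 to 4.52, limma adjusted p = 5.40e-09) and 3.52 with Am80 (2.82 to 4.39, adjusted p = 7.46e-09). Across all alternatives the log2 fold change stayed between 1.68 and 1.92 with ATRA and between 1.64 and 1.88 with Am80.

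The stretches upstream of the start sites of these neighbours are shown because LILRA5 and LILRB2 had the largest rises among the 7 tested receptors with each retinoid. They come from RefSeq (GRCh38.p14), 5′ to 3′ on the minus strand, chr19:54313167-54313416 for LILRA5 and chr19:54281185-54281360 for LILRB2, and end where the annotated gene begins in RefSeq or, for LILRB2, in GENCODE. Capitals mark matches to TTGCNNAA, a loose form of sites bound by C/EBP factors. They also mark GAGGAA, a core of sites of the myeloid factor PU.1, which reads TTCCTC on the other strand.
LILRA5: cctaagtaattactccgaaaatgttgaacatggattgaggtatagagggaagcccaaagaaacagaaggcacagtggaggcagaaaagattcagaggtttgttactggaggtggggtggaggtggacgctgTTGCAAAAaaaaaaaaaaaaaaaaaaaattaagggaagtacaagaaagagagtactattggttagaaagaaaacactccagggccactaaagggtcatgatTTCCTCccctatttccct
LILRB2: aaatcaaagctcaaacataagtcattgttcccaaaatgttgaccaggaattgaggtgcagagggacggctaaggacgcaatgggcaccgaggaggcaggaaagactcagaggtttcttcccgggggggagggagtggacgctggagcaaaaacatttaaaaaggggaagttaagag
The LILRA5 stretch held 1 match to each motif and the LILRB2 stretch none. Of 35116 RefSeq promoter windows of 300 bases (250 before and 50 after the start), 27.9% held GAGGAA and 10.5% TTGCNNAA on either strand. Neither the RAR motif AGGTCA, found in 13.8% of all windows, nor its form AGTTCA, found in 10.4%, occurred in the windows of LILRA5 or LILRB2. Other forms of the motif, such as GGGTCA, which the LILRA5 stretch holds, entered only the search for direct repeats. Among the 16 windows listed for 9 of the receptors, AGGTCA occurred in 1, that of LILRB5, and direct repeats of the RAR motif with spacers of 1, 2 or 5 bases, found in 0.259% of all windows, in 0. Motifs were looked for without regard to overlap between them, and these counts describe letters in the windows only. The LILRA5 window was 70.3% identical to the closest LILRB2 window, 70.7% to that of LILRA1 and 71.4% to that of LILRB1 in a global alignment. The same windows of LILRA1, LILRB1 and LILRB2 were 90.4% to 93.7% identical to each other.

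LILRB1 (ENSG00000104972.16, chromosome 19, 54617158 to 54637528, plus strand), another inhibitory receptor for MHC class I molecules, was low in all conditions. Untreated libraries held 20.9, 18.5, 22.4 and 14.4 normalized counts. ATRA libraries held 34.7, 34.5 and 25.2, and Am80 libraries 35.3, 28.0 and 42.7. The ranges did not overlap with those of untreated cells, although the gap to the lowest ATRA library was small. The log2 fold change was 0.70 with ATRA (standard error 0.22, limma adjusted p = 0.0253) and 0.85 with Am80 (standard error 0.22, limma adjusted p = 0.00602). The ATRA call was lost without ATRA replicate 1 (limma adjusted p = 0.109), without ATRA replicate 2 (limma adjusted p = 0.101) and without untreated replicate 4 (0.58, limma adjusted p = 0.0703), and in DESeq2 (adjusted p = 0.0788). The Am80 call held under all 25 alternatives that kept the call limits, but it is lost where an adjusted p under 0.01 and a log2 fold change above 1 are asked for.

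LILRA1 and LILRA2, activating receptors, moved little. LILRA1 held 22.3, 28.6, 27.4 and 18.8 normalized counts in untreated cells and 33.7, 41.4 and 34.6 with ATRA, with no overlap. Its log2 fold change of 0.58 lay at the limit of 1.5-fold (limma adjusted p = 0.0521), and it was called without untreated replicate 2 (0.67, limma adjusted p = 0.0396) or untreated replicate 3 (0.65, limma adjusted p = 0.0487). With Am80 LILRA1 held 35.3, 28.996 and 30.4. LILRA2 held 199, 228, 202 and 207 normalized counts in untreated cells, 163, 174 and 165 with ATRA and 165, 142 and 175 with Am80. All retinoid libraries of LILRA2 lay below all untreated libraries, and its log2 fold changes of -0.32 (limma adjusted p = 0.0179) and -0.38 (limma adjusted p = 0.00458) stayed within 1.5-fold.

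LILRB4 and LAIR1, the most abundant of the group, were not called in any of the 9 comparisons. LILRB4 held 794 to 917 normalized counts in untreated cells (median 883), 774, 779 and 858 with ATRA and 897, 815 and 845 with Am80. The ranges overlapped in both cases. LAIR1 held 768, 792, 874 and 926 in untreated cells and 632, 718 and 694 with ATRA, without overlap, a log2 fold change of -0.30 (limma adjusted p = 0.0119) within 1.5-fold. With Am80 LAIR1 held 774, 712 and 805 and overlapped the untreated range. In bulk RNA, a lower level in each cell and fewer cells with the transcript cannot be told apart.

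**Figure D3:**
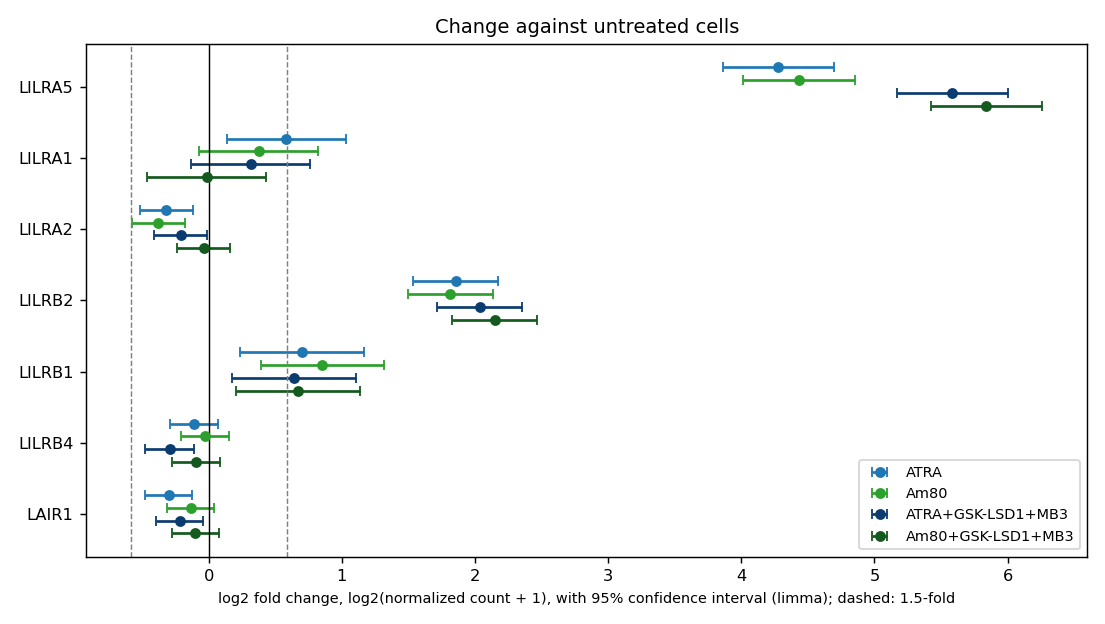
Log2 fold change against untreated cells (x axis, on log2(normalized count + 1), limma) of the 7 tested receptors in the 4 treatments, with 95% confidence intervals as bars and the 1.5-fold limits dashed. LILRA5 lies between 4.28 and 5.84 and LILRB2 between 1.81 and 2.15, while LILRA2, LILRB4 and LAIR1 lie between -0.38 and -0.03.

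With inhibitors beside the retinoids the same 3 receptors were higher than in untreated cells. With the ATRA combination 3 of 7 were higher and 0 lower, where 14.2% of all genes were higher and 14.8% lower. These counts include LILRA5, through which the genes were chosen and which entered by its treated libraries, so nothing is read from them about the group. With the Am80 combination 3 were higher and 0 lower, where 12.9% of all genes were higher and 13.1% lower. LILRA5 held 154, 157 and 174 normalized counts with the ATRA combination and 174, 199 and 206 with the Am80 combination. From pooled reads that was 62.7-fold (exact 95% interval 32.8 to 138) and 74.8-fold (39.1 to 165) above untreated cells. LILRB2 held 96.7, 85.9 and 84.1 with the ATRA combination, 4.10-fold above untreated cells (limma adjusted p = 6.64e-10). It held 115, 89.3 and 86.3 with the Am80 combination, a fold of 4.44 (limma adjusted p = 2.56e-10).

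LILRB1 held 30.3, 25.0 and 35.2 normalized counts with the ATRA combination and 35.1, 23.4 and 34.8 with the Am80 combination. The log2 fold changes against untreated cells were 0.64 (limma adjusted p = 0.0176) and 0.67 (limma adjusted p = 0.0147), just past the 1.5-fold limit of 0.58. Without untreated replicate 4 they fell to 0.52 and 0.55, and both calls were lost. The call with the ATRA combination was also lost without replicate 3 of that group (0.53), and the call with the Am80 combination without its replicate 1 or replicate 3 (0.58 each). Both were lost in DESeq2 (adjusted p = 0.0783 and 0.0601) and after scaling to total reads (0.50 each). LILRB4 held 691, 627 and 820 with the ATRA combination, a log2 fold change of -0.29 (limma adjusted p = 0.00631) within 1.5-fold and with overlapping ranges. LAIR1 held 698, 668 and 799 there, a log2 fold change of -0.22 (limma adjusted p = 0.0309). With the Am80 combination LILRB4 held 754 to 896 and LAIR1 720 to 833.

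Adding the inhibitors to a retinoid raised LILRA5 further, and no other tested receptor was called. Beside ATRA 8.15% of all genes were higher and 11.4% lower, and of the 6 tested receptors other than LILRA5 0 were higher and 0 lower. Beside Am80 6.81% of all genes were higher and 8.90% lower, and again 0 of these 6 in either direction. LILRA5, through which the genes were chosen, is past the limits in both and is described without a test. The pooled reads of LILRA5 were 2.47-fold higher beside ATRA (exact 95% interval 2.10 to 2.90) and 2.66-fold beside Am80 (2.30 to 3.08). The lowest library with inhibitors, at 154, lay above the highest with a retinoid alone, at 73.8. LILRB2 had log2 fold changes of 0.18 beside ATRA (limma adjusted p = 0.384) and 0.34 beside Am80 (limma adjusted p = 0.112), with intervals of -0.16 to 0.52 and -0.01 to 0.68. Its 3 libraries with the Am80 combination all lay above those with Am80 alone. Whether LILRA5 and LILRB2 differed in this response was not tested. LILRA2 held 209, 195 and 206 normalized counts with the Am80 combination, above all Am80 libraries, a log2 fold change of 0.34 within 1.5-fold (limma adjusted p = 0.0113). Scaled to total reads in place of size factors, all tested genes shifted by a median of -0.16 beside ATRA and -0.13 beside Am80, and the changes of LILRA5 remained at least 1.16. LILRA1 held 20.8, 26.1 and 24.5 with the Am80 combination, below all Am80 libraries, with a log2 fold change of -0.39 (limma adjusted p = 0.183). With the ATRA combination LILRA1 was spread widely, at 42.0, 22.8 and 28.4. LILRB1, LILRB4 and LAIR1 had log2 fold changes between -0.18 and 0.08.

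**Figure D4:**
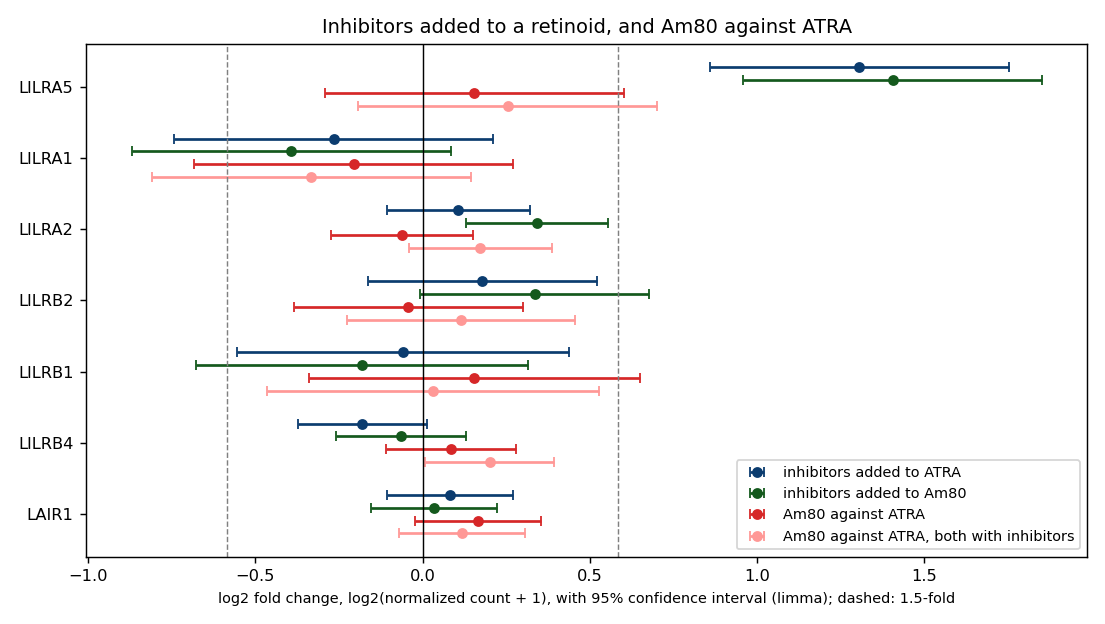
Log2 fold change (x axis, on log2(normalized count + 1), limma) of the 7 tested receptors on adding GSK-LSD1 and MB3 to each retinoid and between Am80 and ATRA, with 95% confidence intervals as bars and the 1.5-fold limits dashed. On adding inhibitors LILRA5, whose values here are a description, lies at 1.31 and 1.41, and the other receptors lie between -0.39 and 0.34.

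Am80 and ATRA, a synthetic and the natural ligand given at the same dose, were compared directly at the same time point. Of 3 such contrasts none called a receptor. Am80 against ATRA called 0 of 7 receptors and 7 of 14643 genes, 0.0478% in either direction, while 2042 genes had an unadjusted p under 0.05. With inhibitors 0 of 7 receptors and 0 genes, 0% in either direction, were called by limma, 2656 had an unadjusted p under 0.05, edgeR called 0 and DESeq2 13. The interaction, which asks whether the inhibitors acted differently beside Am80 and ATRA, gave 0 of 7 receptors and 0% of genes in limma, 2211 at an unadjusted p under 0.05, 0 in edgeR and 6 in DESeq2. None of the 7 receptors had an unadjusted p under 0.05 in the contrast without inhibitors or in the interaction, and LILRB4 alone had in that with inhibitors (log2 difference 0.20, limma adjusted p = 0.260).

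LILRA5 was 1.11-fold higher with Am80 than with ATRA, with an interval of 0.82 to 1.52 (limma adjusted p = 0.813), and 1.19-fold higher with inhibitors, with an interval of 0.88 to 1.63 (limma adjusted p = 0.538). With inhibitors the lowest Am80 library, at 174.3 normalized counts, lay just above the highest ATRA library, at 173.9. LILRB2 had a fold of 0.97 without inhibitors (0.77 to 1.23) and of 1.08 with them (0.85 to 1.37). LILRB1 had folds of 1.11 (0.79 to 1.57) and 1.02 (0.72 to 1.44). LILRA1 had folds of 0.87 (0.62 to 1.21) and 0.79 (0.57 to 1.11), and LILRA2 of 0.96 (0.83 to 1.11) and 1.13 (0.97 to 1.31). LILRB4 and LAIR1, with more reads, had narrower intervals, from 0.93 to 1.28 without inhibitors. These intervals leave room for differences of up to 1.63-fold for LILRA5, so the test does not show that the ligands act alike.

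LILRA6 and LILRB3 were too low for the test. LILRA6, an activating receptor close in sequence to LILRB3, held 0, 1, 0 and 0 reads in untreated libraries and 3, 4 and 7 with ATRA. It held 3, 6 and 2 reads with Am80, 5, 3 and 7 with the ATRA combination, and 1, 0 and 1 with the Am80 combination. Every library with ATRA, with Am80 or with the ATRA combination had more than the untreated libraries, but the group with the Am80 combination overlapped them. The pooled ratio to untreated cells was 13.7 with ATRA (exact 95% interval 2.08 to 579) and 2.90 with the Am80 combination (0.15 to 171). In the fit without a filter on low values LILRA6 had log2 fold changes of 2.001 with ATRA (limma adjusted p = 0.00784), 1.51 with Am80 (limma adjusted p = 0.0502), 2.37 with the ATRA combination (limma adjusted p = 0.000545) and 0.52 with the Am80 combination (limma adjusted p = 0.536). These values rest on 0 to 7 reads a library and depend on the tool. DESeq2, which also held LILRA6, called only 2 receptors with ATRA, LILRA5 and LILRB2. With the ATRA combination DESeq2 called LILRA5, LILRB2 and 1 of the receptors under the filter. LILRB3, an inhibitory receptor, held 0 to 7 reads a library, with overlapping ranges in all 6 comparisons against untreated cells or of adding inhibitors. With 629 windows in common, reads of LILRA6 and LILRB3 cannot be fully told apart. Of further family genes LILRA4 and the pseudogene LILRP2 had no read, LAIR2 had 1 and LILRP1 6 in all, and no gene ID of the count table matched LILRA3.

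The position of the receptors gives another view. From LILRB3 to LILRB4 the cluster spans 454 kb (GENCODE 29 on GRCh38). LILRB3, LILRA6, LILRB5, LILRB2, LILRA5 and LAIR1 lie on the minus strand in this order, and after a gap of 202 kb LILRA2, LILRA1, LILRB1 and LILRB4 follow on the plus strand. LILRB5 and LILRB2 are 16.5 kb apart, and LILRA5 and LAIR1 38.2 kb. LILRA1 and LILRB1 are 15.1 kb apart. The largest rises among the 7 tested receptors thus belonged to the adjacent pair LILRB2 and LILRA5, with LILRB5, at 0 reads, on 1 side and LAIR1, within 1.5-fold of untreated cells, on the other. Of 54 other annotated genes in the cluster or within 100 kb, 7 passed the filter: PRPF31, CNOT3, LENG1, MBOAT7, TSEN34, RPS9 and LENG8. None of these 7 was called with ATRA or Am80 against untreated cells. PRPF31, a splicing factor, was lower with the ATRA combination than in untreated cells (log2 fold change -0.65, limma adjusted p = 0.000141), and LENG1 was lower with the ATRA combination than with ATRA (-0.60, limma adjusted p = 0.0218). These genes were named after their values were seen. LILRA5 also overlaps AC245884.11, an annotated transcript on the same strand, by 85 exonic bases, and that gene had no read.

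**Figure D5:**
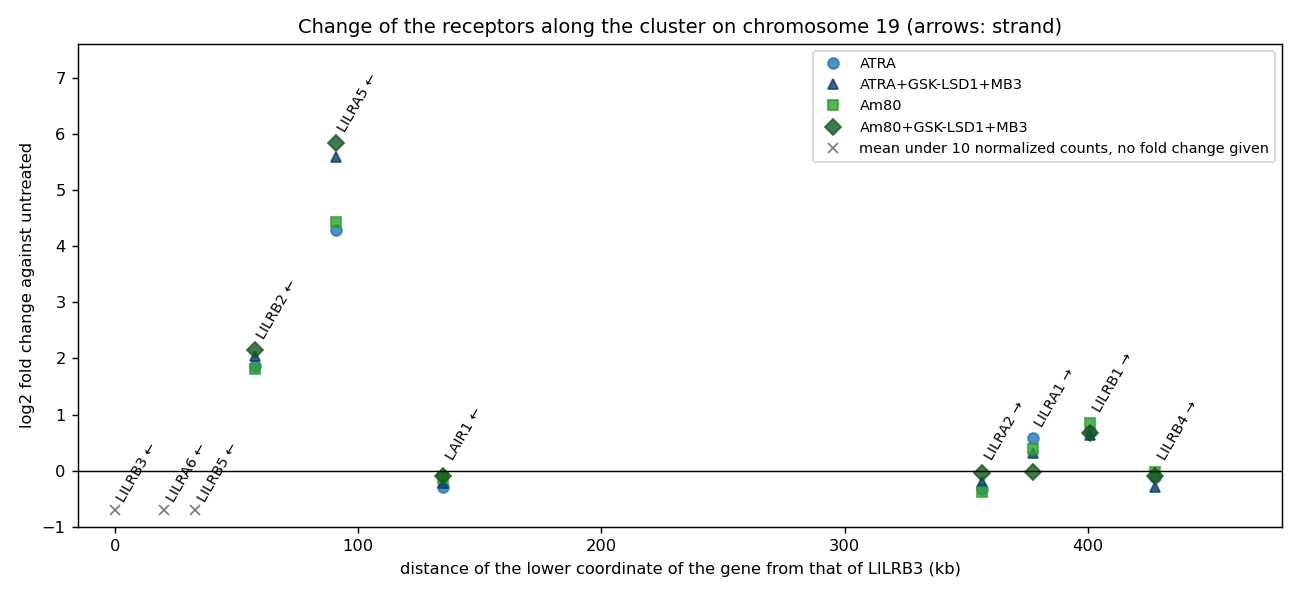
Log2 fold change against untreated cells (y axis) of the 7 tested receptors in the 4 treatments by the distance of their lower coordinate from that of LILRB3 (x axis, kb); arrows give the strand and crosses the 3 receptors with means under 10 normalized counts, for which no fold change is drawn. LILRA5 and LILRB2 are neighbours, and LAIR1 and LILRA2, the next tested genes on the right, lie between -0.38 and -0.04.

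Over the 16 libraries LILRA5 and LILRB2 had a correlation of r = 0.967 on the log2 scale, which follows the conditions. Within conditions it was -0.29, so libraries of 1 condition with more LILRA5 did not hold more LILRB2. LILRB4 and LAIR1 had r = 0.645 over all libraries and 0.659 within conditions. Within each library both genes share its depth and scaling. The other genes most like LILRA5 over the 16 libraries, which share the conditions, taken from genes averaging 50 or more normalized counts, were SH2B3, TEX2, C16orf54, CDYL2 and IL31RA, each with r = 0.996. SH2B3, an adaptor that restrains cytokine receptor signaling, averaged 1718 normalized counts untreated, 3743 and 3779 under ATRA and Am80, and 4811 and 4897 under the combinations. C16orf54 had log2 fold changes of 2.08 with ATRA and 0.73 on adding inhibitors to it, smaller than those of LILRA5.

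RNA of adaptors and signaling partners of these and related receptors was followed as a list of 10 genes, all tested. With each retinoid alone 2 were higher and 0 lower, where 6.52% and 6.41% of all genes were higher and 2.94% and 3.76% lower with ATRA and Am80, and the median log2 fold change was 0.05 with ATRA and 0.11 with Am80. This list and those that follow were chosen with earlier results of these data known. Nothing is therefore read from their counts about the lists as groups. The risers were the Src-family kinases FGR and LYN, which phosphorylate receptor tails. FGR rose from 86.2 ± 10.95 normalized counts (SD, n = 4 untreated libraries) to 2840 ± 117 under ATRA and 2782 ± 215 under Am80 (SD, n = 3 each), log2 fold changes of 5.03 and 5.003. LYN had log2 fold changes of 0.72 with ATRA (limma adjusted p = 1.29e-09) and 0.83 with Am80 (limma adjusted p = 1.26e-10). Adding inhibitors lowered FGR by log2 fold changes of -0.95 and -0.80, opposite in direction to LILRA5. FCER1G, the adaptor of LILRA receptors, was within 1.5-fold with retinoids alone and 0.66 and 0.68 higher than untreated with inhibitors beside ATRA and Am80. With the ATRA combination 3 were higher and 3 lower than untreated, where 14.2% of all genes were higher and 14.8% lower. The kinase CSK (-0.85), the phosphatase gene PTPN6 (-0.60) and the adaptor TYROBP (-0.59) were the lower ones. With the Am80 combination 3 were higher and 1, CSK (-0.75), lower (all genes 12.9% and 13.1%). Adding inhibitors to ATRA gave 1 higher and 4 lower (all genes 8.15% and 11.4%), and adding them to Am80 gave 0 higher and 1, FGR, lower (all genes 6.81% and 8.90%). The difference between these counts was not tested. The genes beyond FGR and LYN were named after their values were seen.

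Of 21 listed ligands 14 were tested. With each retinoid 2 were higher and 0 lower, against the shares of all genes given for the list above: ALCAM, an adhesion molecule, with log2 fold changes of 0.67 and 0.79, and the MHC class I gene HLA-F with 0.68 (limma adjusted p = 0.0355) and 0.65 (limma adjusted p = 0.0396). HLA-F shares sequence with other class I genes, and its value is uncertain to that extent. With the ATRA combination 2 ligands were higher and 3 lower than untreated, and with the Am80 combination 1 and 2, where the shares of all genes were 14.2% and 14.8%, and 12.9% and 13.1%. Adding inhibitors gave 1 higher and 3 lower with ATRA as the base, and 0 and 1 with Am80. The shares of all genes there were 8.15% and 11.4% beside ATRA, and 6.81% and 8.90% beside Am80. For the 14 ligands the median change against untreated cells, in log2 units, was -0.05 for ATRA, 0.03 for Am80, -0.36 for the ATRA combination and -0.09 for that of Am80.

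Other paired receptors of myeloid cells were counted in the same way. Of 15 further inhibitory receptors 11 were tested, and 3 were higher and 1 lower with each retinoid, where 6.52% and 6.41% of all genes were higher and 2.94% and 3.76% lower. CD300A, an inhibitory receptor for phosphatidylserine, had log2 fold changes of 2.05 and 2.01, and PECAM1, an adhesion molecule with inhibitory motifs, 1.25 and 1.29. The lectin CLEC12A was lower, with -1.17 and -0.82. Against untreated cells 4 were higher and 0 lower with the ATRA combination (all genes 14.2% and 14.8%), and 4 and 2 with the Am80 combination (12.9% and 13.1%). Adding inhibitors gave 3 higher and 2 lower with ATRA as the base, and 2 and 2 with Am80, where the shares of all genes were 8.15% and 11.4%, and 6.81% and 8.90%. The median log2 fold change of these 11 lay between -0.09 and 0.22 in the 6 comparisons. FCGR2B, the inhibitory Fc receptor, was higher by 0.66 beside both, CD300LF by 0.59 and 0.62, and CD300A was lower, with -0.70 and -0.59.

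Of 17 further activating receptors 10 were tested. With ATRA 2 were higher and 1 lower, and with Am80 2 were higher and 0 lower, against the same shares of all genes as for the inhibitory receptors, as also on adding inhibitors. CD300LB, which pairs with the adaptor TYROBP, had log2 fold changes of 2.59 and 2.42, and TREM1, an amplifier of inflammatory signals, 0.88 and 1.03. Against untreated cells 2 were higher and 2 lower with the ATRA combination, and 2 and 1 with the Am80 combination, beside 14.2% and 14.8%, and 12.9% and 13.1%, of all genes. Adding inhibitors gave 2 higher and 3 lower with ATRA as the base, and 2 and 2 with Am80. The median of these 10 lay between -0.04 and 0.24. TREM1 was higher by 1.16 and 1.11, as LILRA5 was, while TREM2 was lower, with -1.37 and -1.38, and CD300LB lower, with -0.76 beside each. TREM1 thus went from 125 ± 9.22 normalized counts (SD, n = 4 untreated libraries) to 231 ± 16.2 under ATRA and 516 ± 11.7 under the ATRA combination (SD, n = 3 each). In the comparisons of Am80 with ATRA no gene of these 4 lists was called.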

How the data were processed

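RNA-seq of OCI-AML3 cells was analysed from the table of normalized counts that the authors deposited, with reads per gene divided by a DESeq2 size factor (a signal unit, 1 column per library). The submitters' processing notes name FastQC, cutadapt, STAR, featureCounts and DESeq2 without versions; genome build, annotation and strand setting are not given in the sources used here. The study's methods name a stranded mRNA kit and 51-cycle single-end reads, whereas the labels name a different kit. Doses and the time of 3 h come from the study's methods. Whole reads were recovered from the steps of low values: 100% of values were whole within 1e-06. All 62700 gene IDs matched a symbol.

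Members and lists were chosen with earlier results of these data known. Genes averaging 10 or more normalized counts were fitted on log2(normalized count + 1) with limma 3.58.1 (R 4.3.3), with a trend and 1 coefficient per group, over all 16 libraries, with Benjamini-Hochberg adjustment over all 14643 genes. Calls needed an adjusted p under 0.05 and over 1.5-fold. The fit was tried on simulated counts with known changes with ATRA and a fixed spread, around means of genes passing the filter. That trial does not cover levels as low as those of LILRA6 or of LILRA5 in untreated cells. Alternatives were another pseudocount, filter, scaling, fold limit, group set or replicate block, edgeR 4.0.16, DESeq2 1.42.0 on recovered reads, and leaving out each library. Pooled read ratios carry exact 95% intervals for counting error only. All 10 members are named; of the lists, up to 3 genes with the largest mean change called with both retinoids, and up to 3 called beside both on adding inhibitors; for likeness, 5 genes. Positions, transcript lengths and windows come from GENCODE 29 (GRCh38), matched by ID without version; promoter windows come from RefSeq (GRCh38.p14). The alignment scored a match 1, a mismatch -1 and a gap base -2. The values of 1 marker gene are not reported here.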

Additional observations from a re-analysis of the deposited data

Results flagged for a closer look

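In the 4 untreated libraries LILRA6 had 1 read in replicate 2 and 0 in the others, so the gap between that library and the rest took the whole range of the group (ratio 1). At this depth 1 read is within counting error. Of 9 receptors with reads in untreated cells this was the only such case. The chance rate of about 1 in 20 groups holds for normally distributed values. Where 1 library alone has a read the ratio is 1 by construction, so that rate does not apply to LILRA6.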

How the results depend on the processing

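The direction of every called change held under all alternatives tried, and none reversed; of 1620 alternative values of single receptors, 32 changed sign, all without a call in either setting. With no limit on the fold change the number of receptors called was 5 in place of 3 with ATRA, 5 in place of 3 with the ATRA combination, both against untreated cells, and 2 in place of 1 on adding inhibitors to Am80, by construction of the wider call; with Am80 against untreated cells it was 4 in place of 3. With an adjusted p under 0.01 and a log2 fold change above 1 it was 2 in place of 3 in all 4 comparisons with untreated cells. LILRB1 was the receptor whose call was lost: in 7 of 25 alternatives for ATRA, in 6 for the ATRA combination and in 7 for that of Am80. The lowest log2 fold changes were 0.57, 0.50 and 0.50, and the cause was not tested. The log2 fold change of LILRA5 with ATRA ranged from 3.22 to 4.66 with the pseudocount and tool. Genes called between Am80 and ATRA numbered 7, and from 0 to 88 over the alternatives (88 without Am80 replicate 3); with inhibitors they numbered up to 127 (only the groups compared) and for the interaction up to 26, with 0 receptors in every case. Scaling to total reads shifted the median gene by -0.15 and -0.19 for the ATRA and Am80 combinations against untreated cells, and the higher genes went from 48.95% and 49.7% of those called to 31.9% and 29.2%; for Am80 alone they went from 63.0% to 52.8%, and on adding inhibitors from 41.7% to 20.9% (ATRA) and from 43.3% to 26.4% (Am80).

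Same-numbered libraries did not deviate together (median r = -0.01 over 30 pairs, from -0.11 to 0.19). No pairing by number was seen, but these values cannot show whether same-numbered libraries were handled together. Against untreated cells a replicate block called 2 receptors for ATRA, 3 for Am80 and 2 for each combination, and 1 on adding inhibitors to either retinoid; LILRB1 was the receptor lost. Of 15 libraries 5 correlated best with a library of their own number. Depth limits LILRA6, LILRB3 and LILRB5, and the untreated level of LILRA5 rests on 9 reads.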
